A study of Mus musculus with 8 samples.

Results

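Megalin and cubilin are the receptors by which the proximal tubule of the kidney takes filtered protein back from the urine, and 9 genes of that system are described here: Lrp2, Cubn, Amn, Dab2, Lrpap1, Clcn5, Ocrl, Fcgrt and Pdzk1. They were chosen by gene name, and each name matched 1 row of the 23386 genes in the deposited table. All 9 passed the filter on low values. The study sequenced poly-A selected RNA of whole left kidneys from mice aged 49 weeks on the C57BL/6J strain, 4 wild type (WT) and 4 Ctrp1-/- (KO), with 1 library a kidney. Each library has its own number in the labels and is taken as 1 animal. Both genotypes came from crosses of heterozygous mice, and WT animals were littermates. The KO animals lack CTRP1, which C1qtnf1 encodes and cells secrete. Their allele carries a deletion of 679 bases in exon 4, 162 of them in the 3' UTR. It was made in 129S5/Sv embryonic stem cells and crossed to C57BL/6J for more than 6 generations, so 129-derived sequence can remain around C1qtnf1 in KO animals; none of the 9 genes lies on its chromosome. Which libraries came from males or females is not given in the labels.

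The proximal tubule lets almost no filtered protein reach the urine. Albumin, vitamin-binding proteins, hormones and small plasma proteins bind to megalin and cubilin at the base of the brush border, enter clathrin-coated pits, and reach endosomes where falling pH frees them. The receptors return to the surface while most cargo goes on to lysosomes. Inherited loss of parts of this route causes low molecular weight proteinuria, as in Dent disease (CLCN5), Lowe syndrome (OCRL), Imerslund-Gräsbeck syndrome (CUBN or AMN) and Donnai-Barrow syndrome (LRP2).

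Short stretches near the starts of 3 of these genes are shown here because they hold motifs of regulators known from the proximal tubule and the lysosome. RefSeq start sites on GRCm38.p6 gave 12 windows for the 9 genes, each from 250 bases before to 50 bases after the start. They were searched on both strands for the core of the HNF1 motif, an HNF4 motif (CAAAGTCCA) and the E-box CACGTG, motifs picked with the sequences in view. HNF1 and HNF4 are transcription factors of proximal tubule cells, and an E-box of this form is bound by TFEB, a regulator of lysosomal genes, among others. Each motif was found in 1 of the 12 windows, and no motif overlapped another. The HNF1 core was in Cubn, the HNF4 motif in Pdzk1 and the E-box in Amn. Of 32851 windows of this length in the genome, 0.411% held the HNF1 core, 0.475% the HNF4 motif and 7.15% the E-box. Matches are given in capitals below, 5′ to 3′ on the strand of the gene.
Cubn, HNF1 core on the opposite strand, chr2:13492046-13492073, minus strand: ttaagcaaaTAATGATTAAgttgtgcat
Pdzk1, HNF4 motif, chr3:96830070-96830097, plus strand: atctttgtcCAAAGTCCAgtgagttcca
Amn, E-box, chr12:111271059-111271086, plus strand: ccccgcccggtCACGTGgggccctcgga
The match begins 188 bases before the RefSeq start in Cubn and 26 bases before it in Amn. In Pdzk1 it begins 14 bases after the upstream one of 2 RefSeq starts, which lies inside the span that the deposited table gives for the gene. These matches describe letters in the reference and say nothing of binding in these kidneys.

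The libraries held 15027400 to 19256378 counted reads. The 9 genes together took 0.533% to 0.573% of them, from 311 to 461 reads for Ocrl up to 40558 to 53751 for Lrp2. C1qtnf1 checked the labels: it measured 3.85, 2.74, 3.18 and 4.75 scaled FPKM in WT replicates 1 to 4 and 0.188, 0.575, 0.228 and 0.311 in KO replicates 1 to 4 (log2 fold change -2.32, SE 0.18, limma adjusted p = 0.000768). Scaled FPKM here means the deposited FPKM, a fragment count relative to gene length and library size, divided by 1 factor per library. Havcr1, a marker of tubule injury, was highest in WT replicate 3 at 4.73 scaled FPKM, then 1.89 in WT replicate 2 (0.482 to 0.656 in the others). Of the other tested injury markers, Vcam1, Spp1, Clu, Cd44 and Fgb were also highest in WT replicate 3. Lcn2, Krt8 and Krt18 were highest in KO replicate 3 (Lcn2 4.07, against 3.40 in WT replicate 3) and Sox9 in WT replicate 1. Apart from Havcr1 and Sox9, these genes were named after their values were seen. The libraries also differed in how level followed GC content across 13947 genes. Spearman's rho of a gene's deviation with its GC content came to 0.462, 0.392, -0.240 and 0.286 in the WT libraries 1 to 4 and to -0.392, -0.0690, -0.115 and -0.358 in the KO libraries 1 to 4. The 14 markers of the convoluted proximal tubule, the site of this uptake, were all present, with summed levels of 8771 to 9235 scaled FPKM in WT and 7573 to 8493 in KO. In whole kidney, fewer cells of a type and less RNA per cell cannot be told apart.

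No difference between the genotypes passed the test for any of the 9 genes (0 of 9 called). A call needs an adjusted p under 0.05 from limma, with Benjamini-Hochberg adjustment over all 14022 tested genes, and 7 genes (0.0499%) met it in all, 0.0285% higher and 0.0214% lower in KO. Adjusted p-values of the 9 ran from 0.215 for Fcgrt to 0.987 for Lrpap1. At an unadjusted p under 0.05 there were 3 of 9 genes, Amn and Fcgrt lower and Clcn5 higher in KO, against 15.4% of all genes. With voom on recovered reads, which called 8 genes in all, the 9 again gave 0 calls and 3 at an unadjusted p under 0.05, where 15.8% of all genes were. With GC and length trends removed they gave 0 calls and 1 (Cubn), where 11.4% of all genes were. In 0 of the 9 genes did the libraries of the groups stand fully apart, which they did in 8.62% of all genes. The median absolute log2 fold change of the 9 was 0.057, beside 0.096 over all tested genes and 0.087 over the 5619 genes with a mean of at least 10 scaled FPKM.

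**Figure D1:**
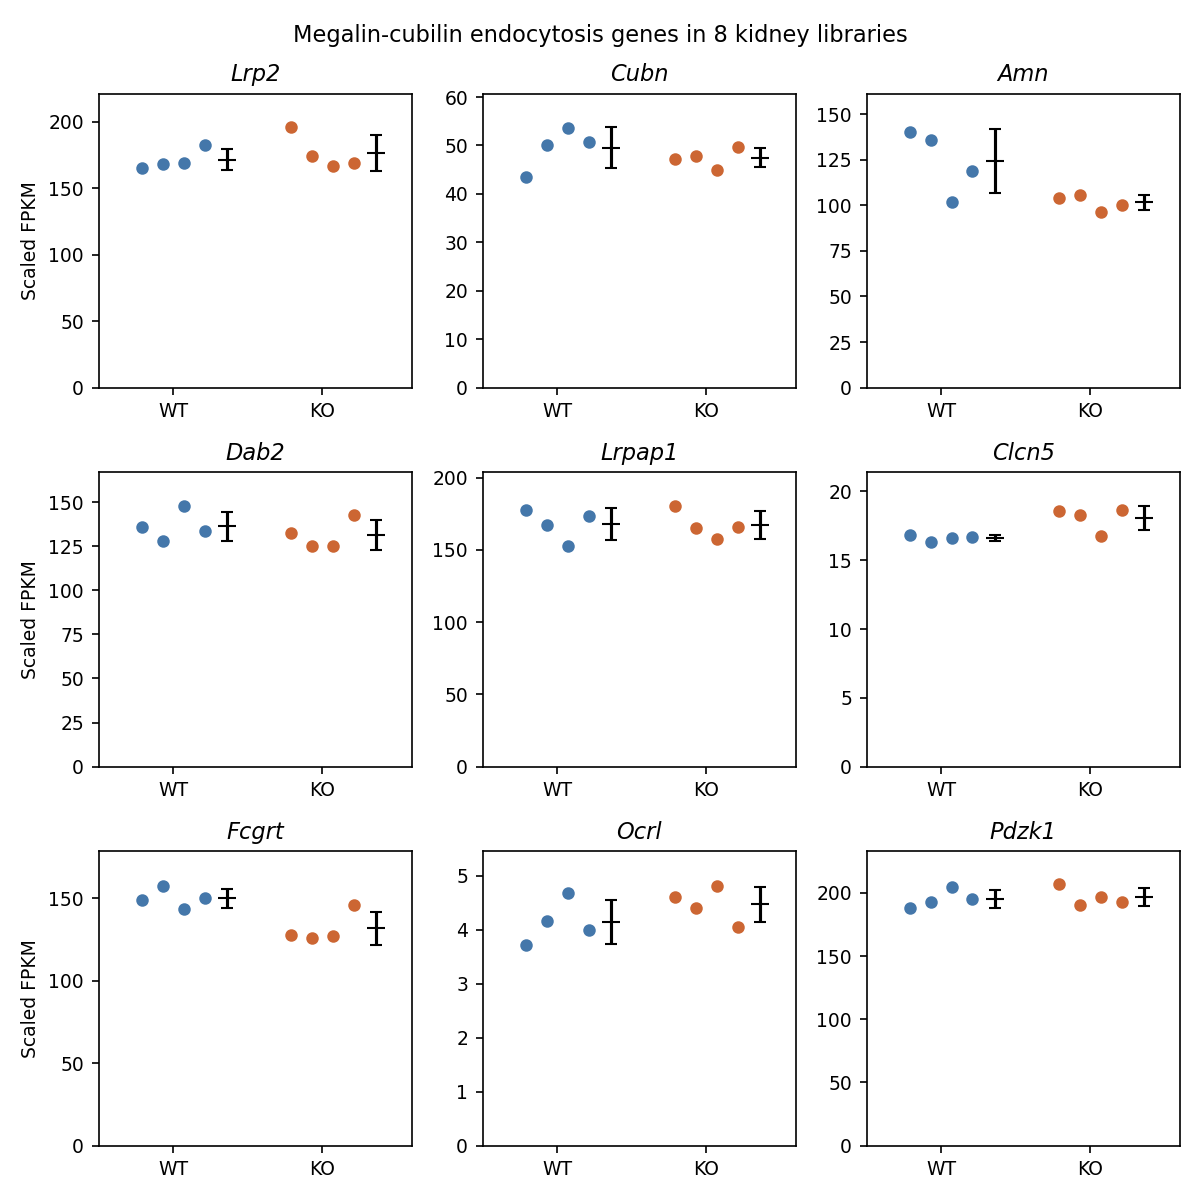
Levels of the 9 genes as scaled FPKM (vertical axes, linear, from 0), 1 panel a gene, with WT libraries in blue and KO libraries in orange; each point is a kidney in replicate order, beside its group's mean and SD (n = 4). The ranges of the groups overlap in every panel; Amn has its 2 highest points, 140 and 136, in WT.

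The levels of the 9 genes spanned a wide range. FPKM is per length, so levels were compared between genes, though it does not correct for GC content, whose trend differed between libraries. Pdzk1 was highest in WT at 195 ± 6.85 scaled FPKM (SD, n = 4), followed by Lrp2 (171 ± 7.89), Lrpap1 (168 ± 11.0), Fcgrt (150 ± 5.73), Dab2 (136 ± 8.34) and Amn (124 ± 17.5). Cubn stood lower at 49.5 ± 4.23, then Clcn5 at 16.6 ± 0.232 and Ocrl at 4.15 ± 0.406. From Lrp2 down to Amn each gene's WT libraries overlapped those of its neighbour in this order. Pdzk1 lay above Lrp2 in all 8 libraries, by a ratio of 1.06 to 1.21, and Cubn, Clcn5 and Ocrl were each separated from their neighbours. By their mean over all libraries 6 of the 9 genes were above 100 scaled FPKM, and Pdzk1, Lrp2 and Lrpap1 ranked 323, 374 and 399 of the 14022 genes.

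The receptors come first. Lrp2 (ENSMUSG00000027070; chromosome 2, 69424340 to 69586065, minus strand, mm10) encodes megalin, a giant receptor of the LDL receptor family that spans the apical membrane. It measured 165, 168, 169 and 183 scaled FPKM in WT and 196, 174, 167 and 169 in KO. KO replicate 1 was the highest of the 8 libraries, and the other KO libraries lay within the WT range. The log2 fold change was 0.04 (SE 0.06, limma adjusted p = 0.779), with an interval for the ratio of KO to WT from 0.935 to 1.13. It went to -0.01 without KO replicate 1.

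Cubn (ENSMUSG00000026726; chromosome 2, 13276338 to 13491924, minus strand) encodes cubilin, a receptor for albumin, transferrin and the intrinsic factor-vitamin B12 complex that has no membrane span of its own. It measured 43.5, 50.2, 53.5 and 50.7 scaled FPKM in WT and 47.1, 47.9, 45.0 and 49.7 in KO. All KO libraries lay between the lowest and the highest WT library. The log2 fold change was -0.057 (SE 0.07, limma adjusted p = 0.707), and the interval for the ratio ran from 0.867 to 1.07. Once GC and length trends were taken out of each library, Cubn stood at -0.14 (limma adjusted p = 0.393), and without WT replicate 1 at -0.12. It was -0.018 without WT replicate 3, -0.032 without KO replicate 3 and -0.016 with upper-quartile scaling. Its span overlaps that of the noncoding Gm13270, and whether they share exons or reads was not examined.

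Amn (ENSMUSG00000021278; chromosome 12, 111271111 to 111276426, plus strand) encodes amnionless, the membrane protein that binds cubilin and carries it to the surface. It had the largest difference of the 9 genes, 18.3% lower in the mean of KO. It measured 140, 136, 102 and 119 scaled FPKM in WT and 104, 106, 96.5 and 100 in KO. WT replicates 1, 2 and 4 lay above all KO libraries, while WT replicate 3 lay among them. Its log2 fold change of -0.28 (SE 0.09) had an adjusted p of 0.229 by limma, above the threshold, and the interval for the ratio was 0.713 to 0.953. Without WT replicate 3 it was -0.37 with a limma adjusted p of 0.0679, still short of the threshold. In that fit all WT libraries had a positive GC trend and all KO libraries a negative one, so genotype and GC trend cannot be told apart. Without WT replicate 1 the log2 fold change was -0.22 and without WT replicate 2 it was -0.23 (limma adjusted p = 0.406 and 0.453). With any other library left out it was -0.30 to -0.25. The spread in WT, 14.1% of the mean, was wide beside 4.07% in KO and a median of 6.67% among genes with a mean of at least 10.

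The level of Amn differed with the GC trend of the libraries. Its transcript has the highest GC content of the 9, 62.9%, in the uppermost decile of all genes, where the median log2 fold change was -0.11. The 3 libraries with a positive trend (WT replicates 1, 2 and 4) held Amn at 119 to 140 scaled FPKM, and the other 5 held it at 96.5 to 106. With trends of GC content and length removed, Amn stood at 118 ± 8.5 in WT and 107 ± 7.78 in KO (SD, n = 4), the groups overlapped, and the log2 fold change was -0.14 (limma adjusted p = 0.465). By their GC trend the libraries fall into separate sets of 3 and 5, so no pooled correlation was computed, and the part of this trend in the difference was not tested.

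**Figure D2:**
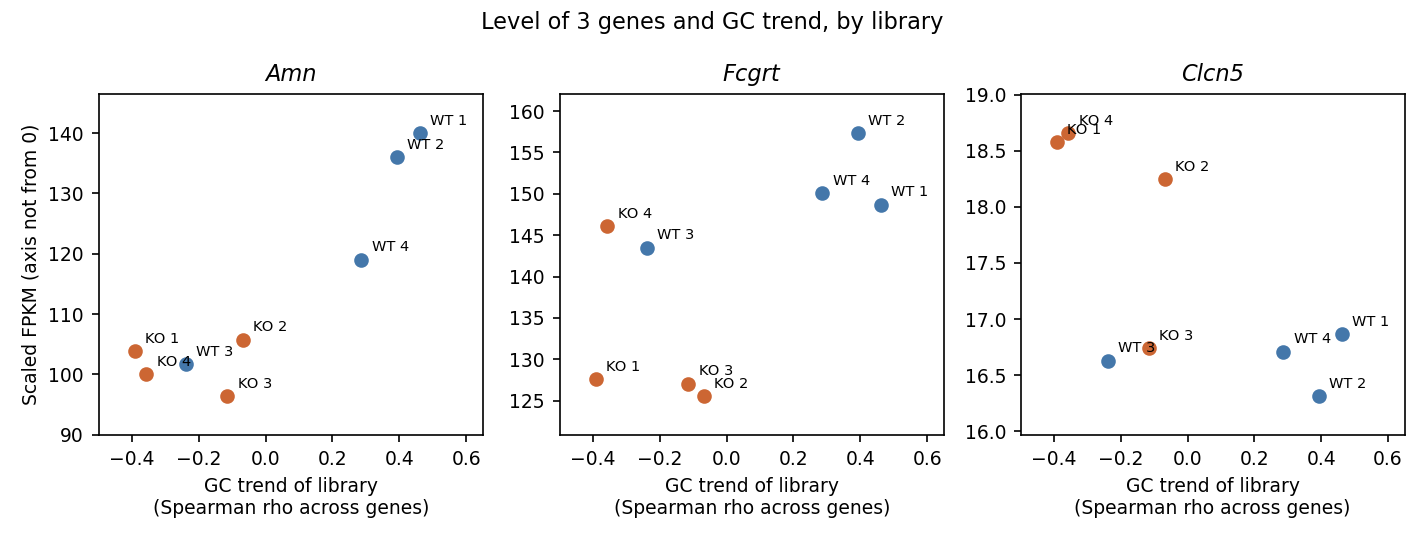
Scaled FPKM (vertical axes, linear, not starting at 0) of Amn, Fcgrt and Clcn5 against the GC trend of each library (horizontal axes, Spearman's rho across genes between deviation and GC content); WT libraries are blue and KO libraries orange. WT 1, 2 and 4 lie on the right with Amn at 119 to 140 and Fcgrt at 149 to 157, and WT 3 lies on the left with the KO libraries.

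Ratios between the receptors did not pass a test either. The ratio of Lrp2 to Cubn, which does not depend on the scaling of a library, was 3.79, 3.36, 3.16 and 3.61 in WT and 4.16, 3.64, 3.71 and 3.41 in KO. The ratio of Amn to Cubn was 3.22, 2.71, 1.90 and 2.35 in WT and 2.20, 2.21, 2.14 and 2.01 in KO, so it was spread widely in WT and narrowly in KO. The differences on the log2 scale were 0.099 and -0.22. Exact two-sided permutation tests over the 70 arrangements gave p = 0.314 and p = 0.229, each 0.503 when adjusted over the 8 ratios tested. The difference in Lrp2 to Cubn was 0.045 without KO replicate 1 and 0.054 without WT replicate 3. That in Amn to Cubn was -0.10 without WT replicate 1 and -0.35 without WT replicate 3 (exact permutation p = 0.0286, adjusted 0.229). GC content is 62.9% for Amn and 46.4% for Cubn, and the ratio was not corrected for it. Without WT replicate 3 the WT libraries all had a positive GC trend and the KO libraries a negative one. Genotype and GC trend cannot be told apart in that comparison. The smallest p of the 8 was that of Fcgrt to Lrp2, which was 0.90, 0.934, 0.848 and 0.820 in WT and 0.651, 0.720, 0.763 and 0.863 in KO (log2 difference -0.23, exact permutation p = 0.0857, adjusted 0.503).

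Next come the proteins that fold, carry and sort the receptors. Lrpap1 (ENSMUSG00000029103; chromosome 5, 35091490 to 35105766, minus strand) encodes RAP, the chaperone that keeps ligands off megalin in the endoplasmic reticulum. It measured 178, 167, 153 and 173 scaled FPKM in WT and 180, 165, 158 and 166 in KO. The means were 168 ± 11.0 and 167 ± 9.54, the closest of any of the 9 genes in proportion. Between the groups the log2 fold change was -0.0034 (SE 0.06, limma adjusted p = 0.987), its sign turned under several scalings, and the interval for the ratio was 0.905 to 1.10. Lrpap1 stood at 0.902 to 1.08 times the level of its client Lrp2 in all 8 libraries.

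Dab2 (ENSMUSG00000022150; chromosome 15, 6299788 to 6440712, plus strand) encodes the adaptor that links the tails of megalin and amnionless to clathrin. It measured 136, 128, 148 and 133 scaled FPKM in WT and 133, 125, 125 and 143 in KO. KO replicates 2 and 3 lay below the WT range and the others inside it. The log2 fold change was -0.052 (SE 0.06, limma adjusted p = 0.714), and over the alternatives it ran from -0.11 with GC and length trends removed (limma adjusted p = 0.445) to -0.011 with upper-quartile scaling. It was -0.012 without WT replicate 3 and -0.092 without KO replicate 4. The span of Dab2 overlaps the antisense gene Gm16311. Dab2 is made in macrophages as well, whose 9 markers in the table summed to 300.4 to 334 scaled FPKM in WT and 254 to 359 in KO.

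Clcn5 (ENSMUSG00000004317; chromosome X, 7153810 to 7319358, minus strand) encodes the chloride-proton exchanger of endosomes that is mutated in Dent disease. It measured 16.9, 16.3, 16.6 and 16.7 scaled FPKM in WT and 18.6, 18.2, 16.7 and 18.7 in KO. The WT libraries were tight, with an SD of 1.39% of the mean, and 3 of 4 KO libraries lay above all of them while KO replicate 3 lay inside the WT range. The KO mean was 8.57% higher, with a log2 fold change of 0.11 (SE 0.05, limma adjusted p = 0.320, not passing). With GC and length trends removed Clcn5 was at 0.022; the part of the trend in its difference was not tested. Clcn5 has the lowest GC content of the 9 genes, 44.7%.

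Ocrl (ENSMUSG00000001173; chromosome X, 47912387 to 47965868, plus strand) encodes the inositol 5-phosphatase of endosomes and the Golgi that is mutated in Lowe syndrome. It was the lowest of the 9, at 3.73, 4.17, 4.69 and 4.00 scaled FPKM in WT and 4.61, 4.4, 4.81 and 4.06 in KO. WT replicate 3 reached the level of the higher KO libraries, and KO replicate 4 that of the middle WT libraries. KO over WT gave a log2 fold change of 0.099 (SE 0.08, limma adjusted p = 0.581), and 0.15 without WT replicate 3 (limma adjusted p = 0.282). It was 0.055 without WT replicate 1 and 0.039 with GC and length trends removed, the lowest over the alternatives.

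Fcgrt (ENSMUSG00000003420; chromosome 7, 45092993 to 45103822, minus strand) encodes the heavy chain of the neonatal Fc receptor, which binds albumin and IgG in acid endosomes and returns them from the cell. It measured 149, 157, 143 and 150 scaled FPKM in WT and 128, 126, 127 and 146 in KO. KO replicates 1, 2 and 3 lay below all WT libraries and KO replicate 4 lay inside the WT range. The mean was 12.2% lower in KO, with a log2 fold change of -0.19 (SE 0.06), the smallest limma adjusted p of the 9 (0.215, not passing) and an interval for the ratio of 0.800 to 0.962. Without KO replicate 4 it was -0.24 (limma adjusted p = 0.167). With any other library left out it ran from -0.21 without WT replicate 3 to -0.17 without WT replicate 2 (limma adjusted p = 0.114 and 0.435).

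Fcgrt has the second highest GC content of the 9, 55.9%, and it stood at 149 to 157 scaled FPKM in the 3 libraries with a positive GC trend and at 126 to 146 in the other 5. With trends of GC content and length removed its log2 fold change was -0.12 (limma adjusted p = 0.501). B2m, its light chain, measured 317 ± 22.5 and 285 ± 23.0 (log2 fold change -0.15, limma adjusted p = 0.342, chosen after its values were seen). Fcgrt is also expressed by endothelium, podocytes and macrophages. The 9 endothelial markers summed to 216 to 237 scaled FPKM in WT and 205 to 255 in KO, and the 8 podocyte markers to 107 to 114 and 101 to 113; none of the markers of these lists was at 0 in every library, and their part in the level of Fcgrt was not tested.

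Pdzk1 (ENSMUSG00000038298; chromosome 3, 96829284 to 96870926, plus strand) encodes a scaffold of the brush border with several PDZ domains that binds the tails of transporters. It measured 188, 193, 204 and 195 scaled FPKM in WT and 207, 191, 197 and 193 in KO. The groups interleaved. Its log2 fold change was 0.011 (SE 0.05, limma adjusted p = 0.936), and the interval for the ratio, 0.935 to 1.09, was the narrowest of the 9 genes. Its span overlaps Gpr89, Cd160 and an antisense gene, 4930442L01Rik.

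**Figure D3:**
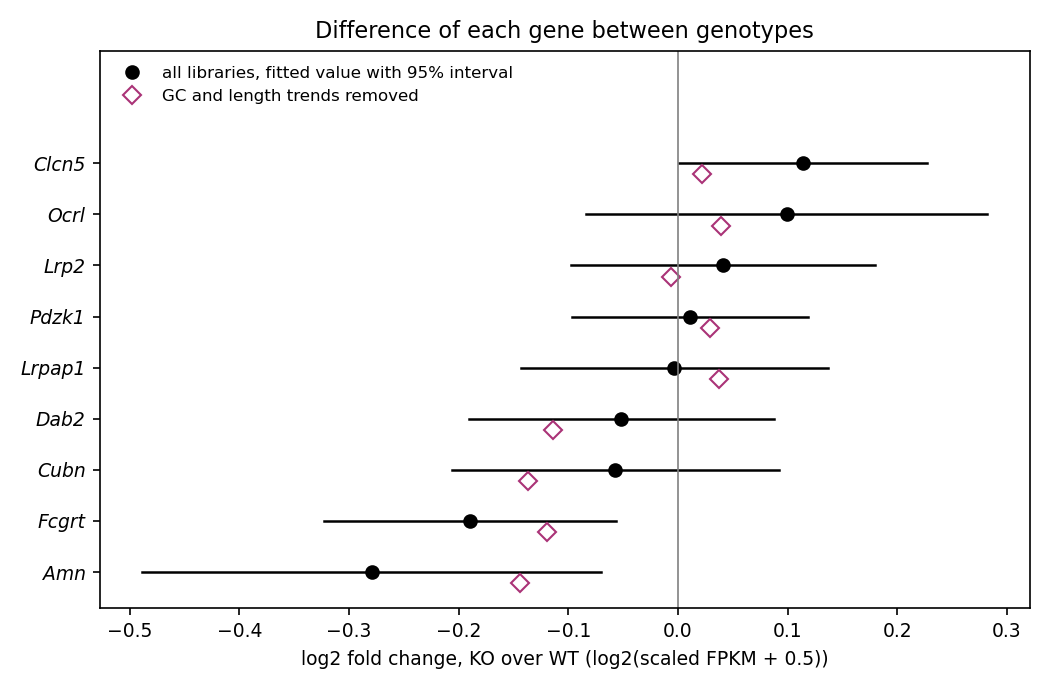
Differences between KO and WT for the 9 genes, as log2 fold change on the horizontal axis; black points are fitted values with 95% intervals from limma, unadjusted for the number of genes, and open diamonds are the values after removal of GC and length trends in each library. Amn and Fcgrt move from -0.28 and -0.19 to -0.14 and -0.12, and Clcn5 from 0.11 to 0.022.

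Across kidneys, no pair of the 9 genes passed a test of correlation. Lrp2 and Cubn had a Pearson's r of 0.12 and a Spearman's rho of 0.36 over the 8 libraries (exact permutation p = 0.787 and 0.389), and r was 0.45 without KO replicate 1 and WT replicate 4. Cubn and Amn, whose proteins form the complex, had r = -0.19 and rho = -0.048 (exact permutation p = 0.639 and 0.935, r = 0.69 without WT replicates 1 and 3). With the mean of each genotype removed, r was 0.22 for Lrp2 and Cubn and -0.64 for Cubn and Amn. Among the 36 pairs the smallest p was that of Amn and Ocrl (r = -0.75, rho = -0.71, exact permutation p = 0.0373 and 0.0576), with adjusted p of 0.672 and 0.794 over the 36 pairs. Their r was -0.64 without WT replicates 1 and 2. By Pearson's r over the 8 libraries, among 8160 other genes with a mean of at least 5 scaled FPKM, the closest to Lrp2 were Hps5, Arhgef5, Usp24, Ncoa3 and Actr8 (r of 0.92 to 0.95). The closest to Cubn were F2r, Akap8, Ndfip2, Snrpb2 and Bfar (0.93 to 0.96). Pdzk1 ranked 607 and Cubn 3383 by likeness to Lrp2. With 8 libraries and so many genes, such values describe these libraries.

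Levels relative to other proximal tubule genes depended on which markers were taken. The mean log2 level of 14 markers of the convoluted part was 8.17, 8.11, 8.23 and 8.11 in WT and 7.93, 7.98, 7.85 and 8.08 in KO, lower in every KO library than in any WT library. Relative to that mean, 8 of the 9 genes stood higher in KO and Amn lower. The differences ran from -0.085 for Amn and 0.0054 for Fcgrt to 0.31 for Clcn5 on the log2 scale. The groups did not overlap for Cubn (0.14), Dab2 (0.14), Pdzk1 (0.21) and Clcn5 (0.31). What share of all genes stood higher or fully apart on this scale was not computed. For each of these the exact two-sided permutation p was 0.0286, the smallest that 4 against 4 libraries allow, and 0.0643 when adjusted over the 9 genes. These tests share the same lower marker mean in KO, so they are not separate results, and an unchanged gene would stand higher in KO. Without the markers, the log2 fold changes were -0.057 for Cubn, -0.052 for Dab2, 0.011 for Pdzk1 and 0.11 for Clcn5. Relative to the markers, Cubn was at 0.072 without WT replicate 1, and Lrpap1, at 0.19, was at 0.12 without WT replicate 3. Amn ran from -0.021 without WT replicate 2 to -0.20 without WT replicate 3, and was at -0.029 without WT replicate 1 and -0.038 without KO replicate 4. That these markers were lower in KO was known from earlier results when the list was taken. With 10 markers of the straight part added, the same differences were -0.055 for Cubn, -0.05 for Dab2, 0.013 for Pdzk1 and 0.12 for Clcn5, with an exact permutation p, adjusted over the 9 genes, of 0.992, 0.992, 1.00 and 0.343. Amn, relative to both sets of markers, was at -0.28 (exact permutation p = 0.0286, 0.257 when adjusted over the 9 genes). The summed level of the straight markers was 2270 to 3384 scaled FPKM in WT and 3151 to 3768 in KO.

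**Figure D4:**
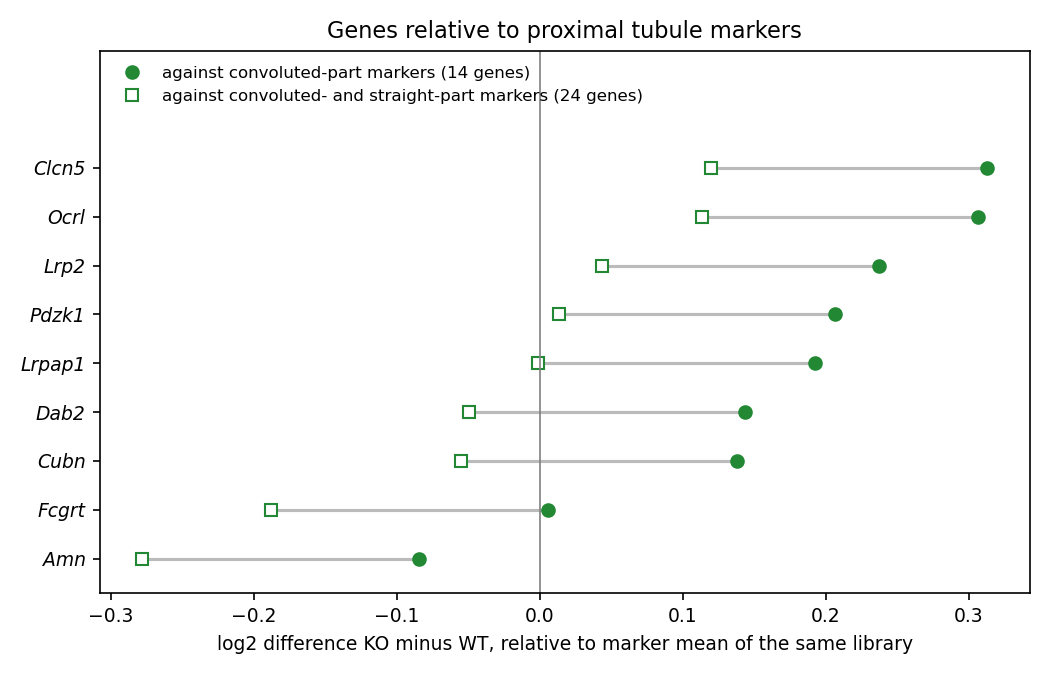
Difference of KO minus WT (horizontal axis, log2) in the level of each of the 9 genes relative to the mean log2 level of proximal tubule markers in the same library; filled circles use 14 markers of the convoluted part, and open squares use these with 10 of the straight part. Adding the straight markers shifts every gene to the left, Cubn from 0.14 to -0.055.

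The wider endocytic route was described with lists of its parts, by the counts past each threshold. No gene of any of these lists passed the adjusted threshold (0 called in each). For clathrin and its adaptors, 2 of 32 tested genes were higher and 1 lower in KO at an unadjusted p under 0.05, where 7.18% of all genes were higher and 8.26% lower, and the list median was 0.016. Myo6, a myosin motor that acts in apical endocytosis, was at 55.3 ± 3.07 scaled FPKM in WT and 61.2 ± 1.59 in KO (log2 fold change 0.15, limma adjusted p = 0.244), and at 0.050 with GC and length trends removed. Aak1, a kinase of the clathrin adaptor complex, was at 2.28 ± 0.229 and 2.71 ± 0.0652 (0.21, 0.263). Without WT replicate 3, 4 genes of the list were higher and 4 lower, where 9.22% and 12.6% of all genes were. Genotype and GC trend cannot be told apart in any fit without WT replicate 3, here or for the lists below.

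Among genes of endosome trafficking, 5 of 38 were higher and 5 lower at an unadjusted p under 0.05, with a median of 0.014. At that threshold 7.18% of all genes were higher and 8.26% lower. Rab5a, the small GTPase of early endosomes, measured 22.8, 23.4, 25.6 and 23.4 scaled FPKM in WT and 29.9, 27.1, 26.9 and 26.1 in KO. The groups did not overlap (log2 fold change 0.20, limma adjusted p = 0.191). Rab11fip2, an effector of recycling endosomes, was at 4.03 ± 0.127 and 4.81 ± 0.264 (0.23, 0.181), and at 0.12 after removal of GC and length trends. Of the phosphoinositide genes, which include kinases and phosphatases acting beside Ocrl, 2 of 21 were higher and 0 lower (median 0.022). They were Mtmr2 (0.20, limma adjusted p = 0.255) and Sacm1l (0.13, 0.267), and Sacm1l was at 0.049 with GC and length trends removed. In that fit, where 4.32% of all genes were higher and 7.06% lower, each of these 2 lists had 1 gene higher and 1 lower. Without WT replicate 3 the phosphoinositide list had 4 of 22 higher and 2 lower, where 9.22% and 12.6% of all genes were.

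For the acidification of endosomes, 1 of 28 genes was higher and 4 lower at an unadjusted p under 0.05 (median -0.033). Of all genes, 7.18% were higher and 8.26% lower. Clcn3, a relative of Clcn5 in endosomes, measured 20.9, 20.9, 22.7 and 23.2 scaled FPKM in WT and 25.9, 24.1, 25.1 and 25.7 in KO, with no overlap (log2 fold change 0.20, limma adjusted p = 0.178). With the GC and length trends removed Clcn3 was at 0.079. Atp6v1c2, a subunit of the proton pump that intercalated cells also express, stood at 13.8 ± 0.399 and 11.5 ± 1.01 (-0.26, limma adjusted p = 0.170).

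The lysosome list, the end of the route and among the longest lists, had the largest count of genes at the unadjusted threshold. Of 36 tested genes, 15 were lower and 3 higher in KO at an unadjusted p under 0.05, where 8.26% and 7.18% of all genes were. The list median was -0.12 beside -0.0012 for all tested genes. Among the convoluted-part markers 7 of 14 were lower, with a median of -0.21. The groups stood fully apart, lower in KO, for 10 of the 36, against 4.28% of all genes, and higher for 1, against 4.34%. Ctsz, a lysosomal cathepsin, measured 110, 113, 108 and 104 scaled FPKM in WT and 88.9, 91.3, 92.2 and 99.2 in KO (log2 fold change -0.23, limma adjusted p = 0.151). Gaa, the lysosomal glucosidase, stood at 48.2 ± 2.72 in WT and 41.2 ± 1.16 in KO (SD, n = 4), with no overlap (-0.22, limma adjusted p = 0.155). With GC and length trends removed Ctsz was at -0.15 and Gaa at -0.13. In that fit 9 of the 36 were lower, where 7.06% of all genes were, 1 was higher, against 4.32%, and the median was -0.093. Without WT replicate 3, 17 were lower and 3 higher, where 12.6% and 9.22% of all genes were, and GC trend and genotype cannot be told apart there.

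**Figure D5:**
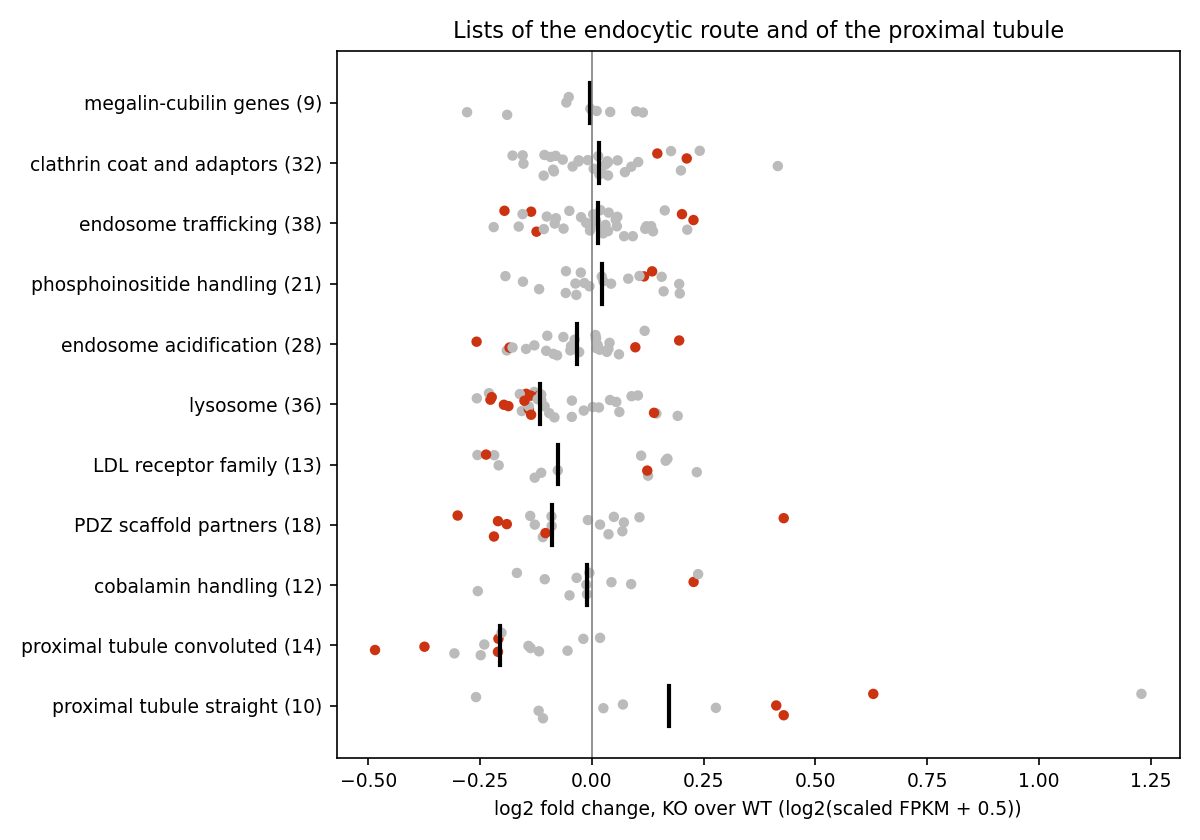
Lists of the endocytic route and of the proximal tubule (rows, tested genes counted in brackets), 1 point a gene at its log2 fold change of KO against WT (horizontal axis); red points are genes whose WT and KO libraries do not overlap, grey points the rest, and black bars the list medians. Among the lists drawn, the medians run from -0.21 for the convoluted proximal tubule to 0.17 for the straight part, and that of the 9 megalin-cubilin genes is -0.0034.

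Relatives and partners of the 9 genes come last. In the LDL receptor family beside megalin, 2 of 13 tested genes were higher and 3 lower at an unadjusted p under 0.05 (median -0.076). At that threshold 7.18% of all genes were higher and 8.26% lower. Lrp4 (6.43 ± 0.303 and 5.39 ± 0.322 scaled FPKM, log2 fold change -0.24, limma adjusted p = 0.176) and Lrp3 (-0.26, 0.219) had the smallest p. With GC and length trends removed Lrp3 was at -0.13. In that fit 1 gene of the family was higher and 2 lower (median -0.047), where 4.32% and 7.06% of all genes were. Of 18 partners of PDZ scaffolds, 1 was higher and 4 lower (median -0.09). Slc34a3, a phosphate transporter of the brush border, measured 45.4, 40.3, 40.7 and 39.6 in WT and 34.3, 32.6, 33.4 and 33.9 in KO, with no overlap (-0.30, limma adjusted p = 0.108). Slc5a8, a lactate transporter of the straight tubule, was at 44.6 ± 4.00 and 60.4 ± 7.81 (0.43, limma adjusted p = 0.155). Without WT replicate 3, 7 of these partners were lower, where 12.6% of all genes were. With GC and length trends removed 4 were lower, where 7.06% of all genes were, and the median was -0.028.

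In the handling of vitamin B12, which cubilin takes up in the gut and megalin in the kidney, 2 of 12 genes were higher and 2 lower (median -0.012). At an unadjusted p under 0.05, 7.18% of all genes were higher and 8.26% lower. Mtr, the methionine synthase that uses the vitamin, was at 4.85 ± 0.254 and 5.77 ± 0.477 scaled FPKM (log2 fold change 0.23, limma adjusted p = 0.218), and the lysosomal transporter Abcd4 had a log2 fold change of -0.26 (0.227). Transcripts of proteins that megalin and cubilin take up, or that pair with Fc receptors, gave 1 of 10 higher and 1 lower (median -0.11). Without WT replicate 3 they gave 1 higher and 0 lower (median -0.031), where 9.22% and 12.6% of all genes were. Gc, the vitamin D-binding protein, was at 36.8 ± 19.2 in WT and 19.0 ± 4.29 in KO (-0.83, limma adjusted p = 0.267; -0.53 without WT replicate 3), and Apoh at 10.3 ± 0.614 and 12.9 ± 1.13 (0.31, 0.157).

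Marker lists of the tubule and of other kidney cells gave these counts. Of the convoluted-part markers 7 of 14 were lower and 0 higher at an unadjusted p under 0.05 (median -0.21), led by Slc22a8 (231 ± 28.8 and 164 ± 16.9 scaled FPKM, log2 fold change -0.49, limma adjusted p = 0.137) and Slc7a7 (-0.37, 0.151). Hnf4a, a factor of the segment, was at 260 ± 25.7 and 256 ± 19.6 (chosen after its values were seen). Of the straight-part markers 3 of 10 were higher and 0 lower (median 0.17), with the smallest p in Slc5a8, named above, and Atp11a (148 ± 41.0 and 223 ± 28.9, log2 fold change 0.63, limma adjusted p = 0.213). Without WT replicate 3 the medians of the convoluted and straight lists were -0.13 and 0.03, and Atp11a was at 0.42. The lists for podocytes, endothelium, macrophages, the thick ascending limb with the distal tubule, collecting duct and injury held 8, 9, 9, 7, 7 and 10 tested genes. At an unadjusted p under 0.05, 0 of these genes were higher, and 0, 1, 1, 0, 2 and 1 were lower, where 7.18% of all genes were higher and 8.26% lower. The injury list had a median of -0.31, and of -0.11 without WT replicate 3. Their smallest p were in Wt1, Ehd3 and Tek, Cd74 and C1qb, Pvalb and Slc12a1, Foxi1 and Atp6v1g3, and Sox9 and Havcr1, with limma adjusted p of 0.234 to 0.483.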

How the data were processed

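The members and gene lists were chosen with earlier results of these data known. The authors deposited FPKM per gene and library, per the file headers. The submitters' processing notes list mm10, HTSeq 0.6.1, STAR 2.5, CASAVA and DESeq2 with no roles. FPKM times length gave whole multiples of a step in 100% of values (tolerance 0.01), so reads were recovered. Each library was divided by a median-ratio factor (0.978 to 1.03), and 14022 genes with a mean of at least 0.5 were fitted on log2(scaled FPKM + 0.5), which understates changes of low genes, with limma 3.58.1 (R 4.3.3, trend, two-sided, Benjamini-Hochberg adjusted p under 0.05). Intervals for ratios are 95% limma intervals. GC content came from the longest GENCODE vM21 transcript (99.5% of tested genes), and its trend and that of length were removed by splines of 4 degrees of freedom. Ratios and correlations used exact permutation (scipy 1.17.1). The fit was tested on simulated reads that held no GC trend between libraries, so that test does not bear on the trend. Genes named beyond the 9 were the 2 of smallest p in each list and the 5 most like Lrp2 and Cubn, unless said otherwise; 1 gene that this rule names is not reported here. If libraries were not separate animals, p-values measure only the spread between these samples. Whether counting used strand is not stated. Protein sequences were not used here.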

Additional observations from a re-analysis of the deposited data

Results flagged for a closer look

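Fcgrt in KO replicate 4 measured 146 scaled FPKM, while KO replicates 1 to 3 lay at 126 to 128, and the gap to the nearest of them was 0.902 of the group's whole range. This was 1 of 34 groups of 4 values examined for the 9 genes and their ratios, and chance flags about 1 in 20.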

How the results depend on the processing

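No member was called under any of the 19 alternatives (pseudocounts, filters, scalings, limma settings, voom on recovered reads, GC and length trends removed, each library left out). Over them Amn ran from -0.37 to -0.14, Fcgrt from -0.24 to -0.12 and Clcn5 from 0.022 to 0.15. The count of called genes, 7, was 5 to 16 with a library left out, 16 without WT replicate 3. These signs turned, and the cause was not tested. Lrp2 was -0.0067 with trends removed and -0.0100 to 0.0727 with a library left out. Lrpap1 was 0.0039 without scaling, 0.036 with quantile normalization, 0.038 with upper-quartile scaling, 0.038 with trends removed and -0.048 to 0.026 with a library left out. Pdzk1 was -0.014 to 0.033, and the difference in the ratio of Lrpap1 to Lrp2 -0.083 to 0.0023, with a library left out. Relative to markers of both parts of the proximal tubule, Cubn was -0.055, Dab2 -0.0496, Lrpap1 -0.00101 and Fcgrt -0.19, and Fcgrt relative to the convoluted part was -0.041 to 0.0455 with a library left out. No paired analysis was possible because no library number in the labels is shared between the groups. The replicate numbers used here only order the libraries within each group. Depth limits Ocrl most, with 311 to 461 reads.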
